A study of Homo sapiens with 6 samples.

Results

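ZNF genes are the largest named group of human zinc finger genes, and 321 of them were described here in the leukaemia cell line MV4-11 after 22d or its vehicle DMSO. They were chosen by symbol, ZNF followed by a number and at most 1 letter, and selected on level, a mean over the 6 libraries of 100 normalized counts or more. The table held 529 such ZNF symbols among 26364 rows. Of the other 208, 112 had a mean of at least 10 and entered the fit, and 20 had no read in any library. The level is the mean of both groups, so it did not use the direction of the difference, but a gene can pass through either group alone. ZNF467, for example, averaged 62.3 normalized counts with DMSO and 527 with 22d. Members that fell can pass through their DMSO libraries in the same way. Just inside the limit stood ZNF606 at 102 and ZNF573 and ZNF138 at 103 and 104 normalized counts, and just outside it ZNF816 at 99.5, ZNF181 at 99.4 and ZNF155 at 98.0.

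MV4-11 is an established line from an acute myeloid leukaemia of monocytic type with an internal tandem duplication in FLT3. Treated cells were given 22d, known as an HDAC8 inhibitor, at 10 nM for 18 hours, and control cells DMSO for the same time, with 3 libraries each from total RNA. Whether the numbered libraries stem from separate cultures is not stated in the labels, and the p-values then describe only how far these samples spread, which may be technical. The libraries held 20070076 to 23749257 reads in genes with 22d and 19995430 to 23353064 with DMSO. All 12 markers listed for such a line had a mean of at least 10 normalized counts, with a summed level of 63245 to 73447 in the 22d libraries and 84717 to 105236 in the DMSO libraries. Most of that difference lay in LYZ, the lysozyme gene, at 11407 to 21870 with 22d and 38415 to 56489 with DMSO, while others of the list were higher with 22d, such as CD68 at 7591 to 9017 with 22d and 3839 to 4721 with DMSO. Of markers of other cell types, 0 of 4 for T cells, erythroid cells and fibroblasts, 3 of 4 for B cells and 2 of 4 for epithelium reached that level. The T cell markers CD3D and CD2, the B cell marker MS4A1 and the fibroblast marker COL1A2 had no reads. The summed epithelial list was 416 to 535 with 22d and 296 to 357 with DMSO. Within it the keratin gene KRT8 had 297 to 381 with 22d and 140.4 to 165 with DMSO and KRT18 had 119 to 149 with 22d and 130.3 to 181 with DMSO, and the part of these marker shifts in the results was not tested. In these bulk samples a change in the share of cells cannot be told apart from a change in RNA per cell.

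Most ZNF proteins bind DNA through tandem C2H2 fingers, in which a pair of cysteines and a pair of histidines hold a zinc ion. The largest class joins such fingers to a KRAB domain, which recruits the corepressor TRIM28 (KAP1). TRIM28 in turn brings the histone H3 lysine methyltransferase SETDB1, HP1 proteins and the NuRD deacetylase complex, a system best known for silencing transposable elements. The genes arose largely by tandem duplication, and many lie in clusters on chromosome 19. Neighbours in a cluster therefore share ancestry and sequence and are not independent observations.

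Normalized counts are read counts divided by 1 size factor per library. Differences were tested with limma on log2(value + 1) across the 13297 genes with a mean of 10 or more, and calls needed a p under 0.05 after Benjamini-Hochberg adjustment. Among the 321 ZNF members, 127 rose with 22d, 48 fell and 146 did not pass. Over all genes tested 28.5% were called higher and 29.6% lower, whereas among the members the shares were 39.6% and 15%. The median log2 fold change was 0.25 over the members and 0.01 over all genes. The members' reads made up 1.01%, 0.994% and 1.01% of all reads in the 22d libraries, against 0.800%, 0.819% and 0.851% in the DMSO libraries. This share needs no size factor, and its groups do not overlap. It amounts to scaling by library totals, under which the median log2 fold change of all genes was 0.22 rather than 0.01. In 140 of 321 members all 22d libraries lay above all DMSO libraries and in 62 all lay below. Of all genes, 32.1% and 33.3% did so. Rises of at least 2-fold were called in 31 of 321 members and such falls in 5, against 9.9% and 9.87% of all genes. The members' share of such rises was thus close to that of all genes, and their share of such falls was lower. Single members differed widely, with an SD of 0.59 between their log2 fold changes and a range of -2.33 to 3.06. With scaling by library totals, which moved the median of all genes to 0.22, 177 members rose and 24 fell, so 88.1% of the members' calls were rises there against 72.6% in the deposited scaling. Over all genes the same change of scaling gave 5278 rises and 2766 falls, and the share of rises among calls was 65.6% against 49.0%.

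**Figure D1:**
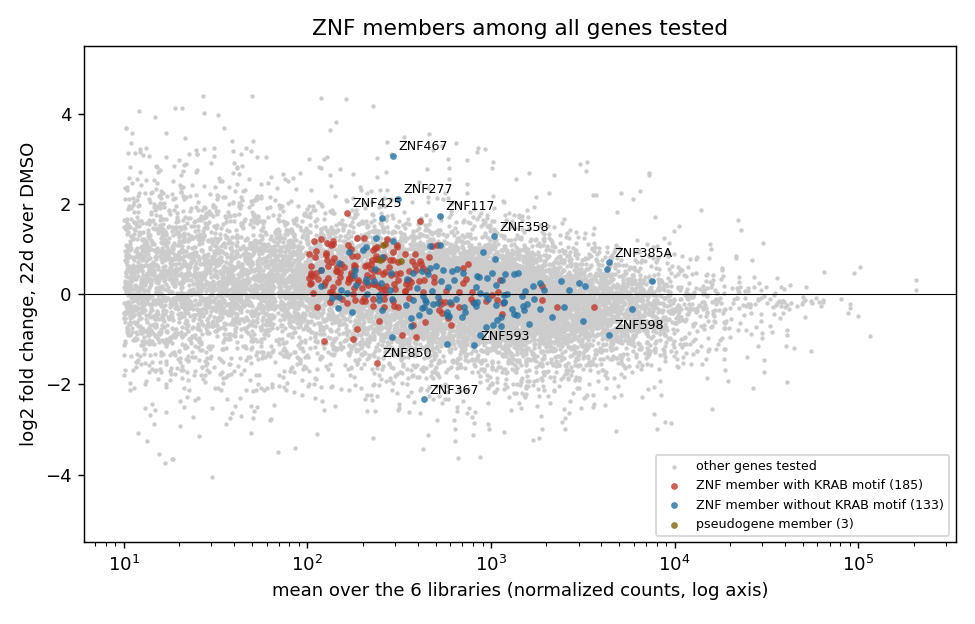
Log2 fold change (22d over DMSO) against the mean over the 6 libraries in normalized counts (log axis) for each gene tested; each point is a gene, grey for other genes, red for the 185 members with a KRAB motif, blue for the 133 without and olive for 3 pseudogene members. Red points crowd at low levels above 0, and the members' extremes are ZNF467 at 3.06 and ZNF367 at -2.33.

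The promoters of the 2 members with the largest rises and the 2 with the largest falls are shown as the regions before an annotated start of transcription. Each is the stretch of 250 bases before the RefSeq start (GRCh38.p14), read 5′ to 3′ on the gene's strand. Capitals mark matches to any of 4 motifs searched on both strands: E2F (TTTGGCGC or TTTCCCGC), ETS (CCGGAAGT), ZNF143 (ACTACA, any base, then TTCC) and ATF/CREB (TGACGTCA).
ZNF467 (chr7:149773589-149773838, minus strand): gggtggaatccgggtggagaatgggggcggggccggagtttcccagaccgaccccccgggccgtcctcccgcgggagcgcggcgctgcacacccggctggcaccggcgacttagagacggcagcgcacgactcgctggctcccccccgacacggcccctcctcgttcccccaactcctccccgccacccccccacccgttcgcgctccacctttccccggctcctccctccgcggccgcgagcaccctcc
ZNF277 (chr7:112206445-112206694, plus strand): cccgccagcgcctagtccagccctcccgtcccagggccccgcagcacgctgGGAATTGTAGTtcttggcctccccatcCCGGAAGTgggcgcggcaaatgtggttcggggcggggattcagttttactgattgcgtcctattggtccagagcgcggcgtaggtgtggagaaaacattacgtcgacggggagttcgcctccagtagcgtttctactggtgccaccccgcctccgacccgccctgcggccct
ZNF367 (chr9:96418371-96418620, minus strand): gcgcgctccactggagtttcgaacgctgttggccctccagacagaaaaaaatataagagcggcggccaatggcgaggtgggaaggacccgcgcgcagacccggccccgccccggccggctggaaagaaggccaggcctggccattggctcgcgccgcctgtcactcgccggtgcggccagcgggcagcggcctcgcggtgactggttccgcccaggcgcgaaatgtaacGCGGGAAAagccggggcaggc
ZNF850 (chr19:36772808-36773057, minus strand): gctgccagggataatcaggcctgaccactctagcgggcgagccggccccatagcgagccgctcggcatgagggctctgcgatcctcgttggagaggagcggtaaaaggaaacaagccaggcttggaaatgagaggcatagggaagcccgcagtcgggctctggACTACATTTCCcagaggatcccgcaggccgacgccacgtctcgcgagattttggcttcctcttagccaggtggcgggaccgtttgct
ZNF467 has no match. ZNF277 holds an inverted ZNF143 match that begins 199 bases before the start and an ETS match at 172 bases, ZNF367 an inverted E2F match at 21 bases, and ZNF850 a ZNF143 match at 87 bases. Of the 321 members 279 had a promoter in the table, and 27 of these (9.68%) held the ZNF143 motif, against 0.908% of all 27305 promoters and 1.71% of the promoters of other genes with a mean of at least 100. It stood in 14 of 109 promoters of members that rose, in 2 of 42 of members that fell and in 11 of 128 of members not called. The ETS motif was in 14.7% of the members' promoters, with 13.8% among those that rose and 14.3% among those that fell, against 3.64% of all promoters and 8.10% of those of other genes with a mean of at least 100. The E2F motif was in 2.87% and the ATF/CREB motif in 3.58% of the members' promoters, against 1.96% and 1.77% of all promoters and 3.35% and 3.05% of those of other genes at that level. A match is a stretch of letters and not a site of binding, and promoters of duplicated genes share ancestry. In 210 of the 279 promoters the 30 bases after the start stand in a GENCODE v29 transcript of the gene. The starts of the others were not matched there.

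The gene with the largest rise was ZNF467, whose mouse counterpart Zfp467 is known as a regulator of bone and fat cell differentiation. ZNF467 (chr7:149764182-149773479, GRCh38 in GENCODE v29) had 591, 460.0 and 529.7 normalized counts in the 22d libraries, against 71.7, 52.7 and 62.5 in the DMSO libraries. Its lowest 22d library was several times its highest DMSO library (log2 fold change 3.06, SE 0.17, limma adjusted p = 4.9e-08). ZNF277 (chr7:112206588-112343096), whose mouse counterpart has been linked to Polycomb repression, had 579.7, 497 and 444 normalized counts in the 22d libraries, against 95.6, 113 and 143 in the DMSO libraries. The groups lay far apart, with 22d replicate 1 the highest (log2 fold change 2.12, SE 0.17, limma adjusted p = 6.9e-07).

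Further rises were largest in ZNF425, ZNF117, ZNF703 and ZNF862, on chromosomes 7 and 8. ZNF425, a KRAB member, had 356, 209.9 and 205 normalized counts in the 22d libraries, against 69.4, 61 and 82.3 in the DMSO libraries. The 22d replicate 1 library stood above the other two, and all 3 lay above DMSO (log2 fold change 1.80, SE 0.22, limma adjusted p = 2e-05). ZNF117 had 754, 894 and 779 normalized counts in the 22d libraries, against 237, 180.0 and 332 in the DMSO libraries, with a log2 fold change of 1.73 (SE 0.19; adjusted p by limma = 6.5e-06). Exons of ZNF117 overlap those of ERV3-1, an endogenous retrovirus gene, so reads of the pair may not be separable. ZNF703, which encodes a transcriptional corepressor amplified in some breast cancers and has no C2H2 motif here, had 414, 331 and 432 normalized counts in the 22d libraries, against 118, 144 and 101 in the DMSO libraries. Its groups were clearly apart (log2 fold change 1.69, SE 0.17, limma adjusted p = 4e-06). ZNF862, with a KRAB motif but no C2H2 motif, had 691, 595 and 572 normalized counts in the 22d libraries, against 223, 199 and 181 in the DMSO libraries, and its 3 libraries in each group were tight (log2 fold change 1.62, SE 0.14, limma adjusted p = 1e-06). On chromosome 19, ZNF358 averaged 1465 ± 119.9 with 22d against 603 ± 46.7 normalized counts with DMSO (SD over 3 libraries), a rise of 1.28, and ZNF555 averaged 264 ± 82.9 with 22d against 108 ± 20.9 normalized counts with DMSO (SD over 3 libraries), a rise of 1.25 (limma adjusted p = 1.5e-06 and 0.00029).

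The largest fall was that of ZNF367 on chromosome 9. ZNF367 (chr9:96385941-96418329) had 135, 155 and 137 normalized counts in the 22d libraries, against 808, 632 and 729 in the DMSO libraries. Each 22d library held less than every DMSO library, with little spread between the 22d libraries (log2 fold change -2.33, SE 0.14, limma adjusted p = 8.1e-08). ZNF850 (chr19:36714383-36772825), a KRAB member with 30 C2H2 motifs, had 108, 139 and 123 normalized counts in the 22d libraries, against 429, 331 and 309 in the DMSO libraries. All its 22d libraries lay below all its DMSO libraries (log2 fold change -1.52, SE 0.17, limma adjusted p = 8.7e-06). ZNF593, the human counterpart of the yeast ribosome export factor Bud20, had 398, 592 and 549 normalized counts in the 22d libraries, against 1028, 1247 and 1069.5 in the DMSO libraries. Its lowest library was 22d replicate 1 (log2 fold change -1.13, SE 0.15, limma adjusted p = 3.8e-05). ZNF576 averaged 367 ± 63.9 with 22d against 792 ± 97.4 normalized counts with DMSO (SD over 3 libraries), a log2 fold change of -1.12 (limma adjusted p = 4.5e-05), and its exons overlap those of SRRM5. The KRAB members ZNF544, ZNF530 and ZNF584, all from the end of the long arm of chromosome 19, fell by 1.04, 0.99 and 0.96. ZNF511 fell by 0.95 (limma adjusted p = 0.00012), with exons that overlap TUBGCP2.

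**Figure D2:**
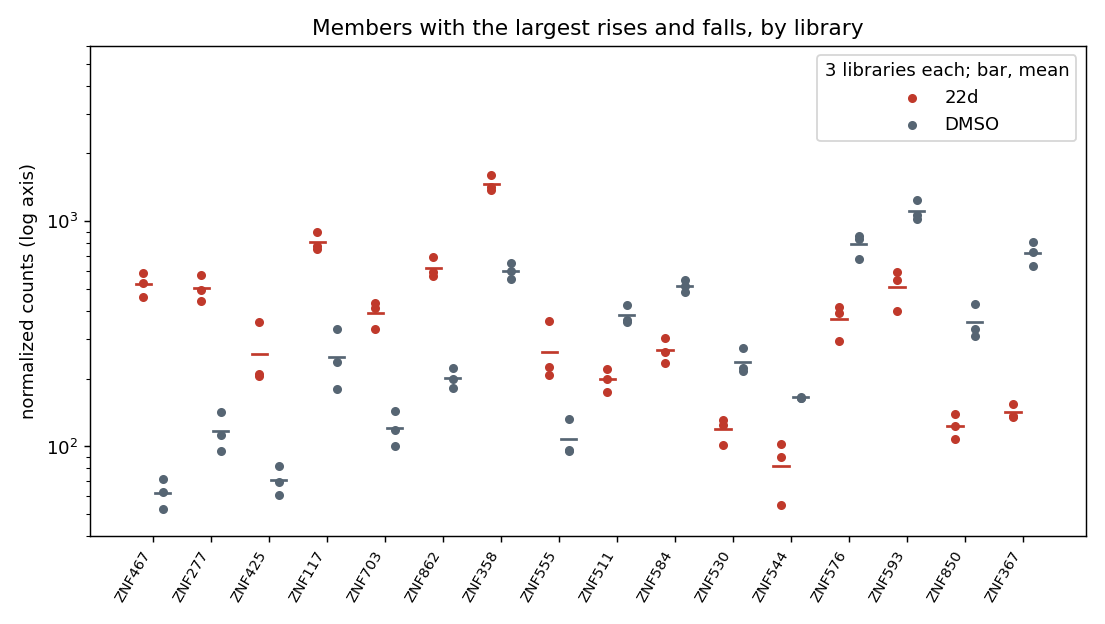
Normalized counts (log axis) in each of 3 libraries with 22d (red) and 3 with DMSO (grey) for the 8 members with the largest rises and the 8 with the largest falls among called members whose groups do not overlap, in order of log2 fold change; bars are group means. ZNF467 lies at 460.0 to 591 with 22d against 52.7 to 71.7 with DMSO, and ZNF367 at 135 to 155 against 632 to 808.

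Members were then divided by a KRAB motif. It was looked for in the longest coding sequence of each gene in GENCODE v29, and 185 members had it, 133 did not, and 3 are pseudogenes with no coding sequence. Of the 185 KRAB members 83 rose and 15 fell, with a median log2 fold change of 0.34. Of the 133 members without the motif 41 rose and 33 fell, with a median of 0.03. The motif misses variant KRAB domains, so this class may hold genes that encode them. The 3 pseudogenes ZNF252P, ZNF271P and ZNF767P all rose, by 0.73 to 1.08. KRAB members had lower levels, with a median of 239.8 normalized counts against 591 for members without the motif. At a mean of 100 to 200 normalized counts, 33 of 70 KRAB members rose and 3 fell, against 5 and 1 of 13 without the motif. At 200 to 500, 45 of 85 KRAB members rose and 6 fell, against 16 and 7 of 42 without the motif. At 500 to 1000, 4 of 20 KRAB members rose and 5 fell, against 11 and 10 of 35 without it. At 1000 and more, 1 of 10 KRAB members rose and 1 fell, against 9 and 15 of 43 without it. With scaling by library totals the counts were 116 rises and 10 falls among KRAB members, with a median of 0.56, and 58 and 14 among the others, with a median of 0.25. The 2 most abundant KRAB members did not pass. ZNF316 averaged 3268 ± 544 with 22d against 4004 ± 788 normalized counts with DMSO (SD over 3 libraries; log2 fold change -0.29, SE 0.15, limma adjusted p = 0.11), and ZNF282, which binds a retroviral repeat and is known as a repressor, averaged 2064 ± 157 with 22d against 2513 ± 347 normalized counts with DMSO (SD over 3 libraries; log2 fold change -0.28, SE 0.12, limma adjusted p = 0.06). ZNF316 passed as lower without 22d replicate 3 (adjusted p = 0.036), and ZNF282 without 22d replicate 1 or DMSO replicate 3 (0.041 and 0.033). The difference between the classes was not tested, since the members were chosen with results known.

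The number of C2H2 motifs ran from 0 to 32, with a median of 10 and the highest number in ZNF91. Among members with over 10 motifs 65 of 146 rose and 19 fell, and with 6 to 10 motifs 35 of 99 rose and 12 fell. With 1 to 5 motifs 21 of 64 rose and 14 fell, and of the 9 members with no match 3 rose and 3 fell. Of all genes tested, 28.5% were called higher and 29.6% lower. The classes also differ in level, with medians of 230, 359, 591 and 458 normalized counts for over 10, 6 to 10, 1 to 5 and 0 motifs. Within the members with over 10 motifs, 58 of 113 KRAB members rose and 7 fell, whereas 7 of 33 without the KRAB motif rose and 12 fell. Their median log2 fold changes were 0.46 and 0.09, and their median levels 214 and 574 normalized counts. The part of level in these splits was not tested. ZNF516 and ZNF787 were the most abundant members without a KRAB motif, and ZNF787 was the highest of all members per kilobase of exon, at 1596 normalized counts per kilobase. ZNF516 averaged 8292 ± 666 with 22d against 6781 ± 201 normalized counts with DMSO (SD over 3 libraries), a rise of 0.29 (limma adjusted p = 0.025), a call lost without 22d replicate 3 (adjusted p = 0.13) and without DMSO replicate 1 or 3 (0.081 and 0.057). ZNF787 averaged 5167 ± 283 with 22d against 6548 ± 1141 normalized counts with DMSO (SD over 3 libraries), a log2 fold change of -0.33 (limma adjusted p = 0.034). ZNF787 did not pass without DMSO replicate 2, its highest library at 7857 normalized counts (adjusted p = 0.15), 22d replicate 1 (0.061) or 22d replicate 2 (0.099). It also missed with scaling by library totals, at -0.11 (0.39), and with quantile normalization, at -0.02 (0.88). Of 17 members with a SCAN motif, a dimerization domain found only in vertebrates, 6 rose and 2 fell. Of these ZNF24 rose by 0.45 (limma adjusted p = 0.0042), while ZNF263 stood at 1463 ± 118 with 22d against 1496 ± 94.2 normalized counts with DMSO (SD over 3 libraries). ZNF185, a LIM domain protein of the actin cytoskeleton despite its symbol, had a log2 fold change of -0.28 (limma adjusted p = 0.026), which did not pass with scaling by library totals (-0.06, adjusted p = 0.61) or quantile normalization (-0.02, 0.86). It was also lost without 22d replicate 2 or 3 (adjusted p = 0.073 and 0.07) or DMSO replicate 1 or 2 (0.10 and 0.064).

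**Figure D3:**
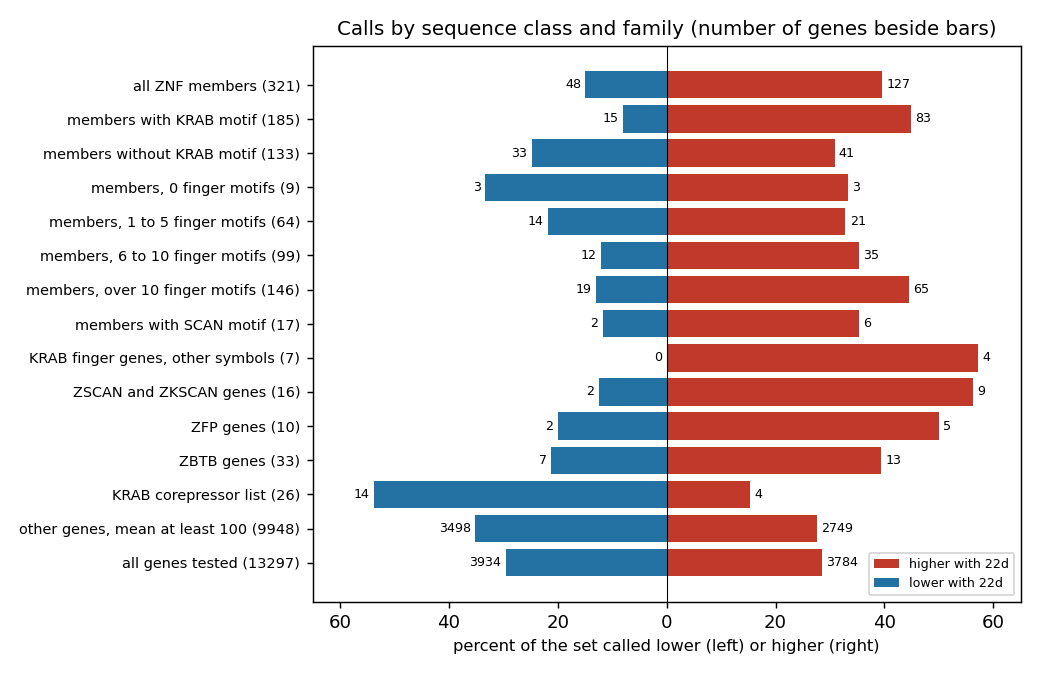
Percent of each set called lower (blue, left) or higher (red, right) with 22d at a limma adjusted p under 0.05, with the number of genes called beside each bar and the size of the set in parentheses. KRAB members have 83 rises and 15 falls of 185, members without the KRAB motif 41 and 33 of 133, and the corepressor list 4 and 14 of 26.

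Since KRAB and other members differ in level, the ZNF rows were set beside the other genes in the same bands of mean level. At a mean of 100 to 200 normalized counts 38 of 83 ZNF members rose and 4 fell, or 45.8% and 4.82%, against 36.0% and 19% of 1113 other genes. At 200 to 500, 64 of 130 rose and 13 fell, or 49.2% and 10%, against 34.0% and 26.1% of 2216 other genes. At 500 to 1000, 15 of 55 rose and 15 fell, or 27.3% each, against 31.6% and 31.1% of 2089 other genes. At 1000 and more, 10 of 53 rose and 16 fell, or 18.9% and 30.2%, against 20.6% and 45.5% of 4530 other genes. The medians of the ZNF members in these bands were 0.42, 0.33, -0.11 and -0.10, and those of the other genes 0.20, 0.10, 0.02 and -0.21. The ZNF share of rises was above that of other genes in the bands of 100 to 500 normalized counts and below it at 500 and more, and other genes too had more rises at low levels. Under the level that defines members, at 50 to 100 normalized counts, 28 of 60 ZNF rows rose and 3 fell, against 35.0% and 16.3% of 926 other genes. At 10 to 50, 13 of 52 ZNF rows rose and 4 fell, or 25% and 7.69%, against 27.3% and 11.6% of 1990 other genes.

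**Figure D4:**
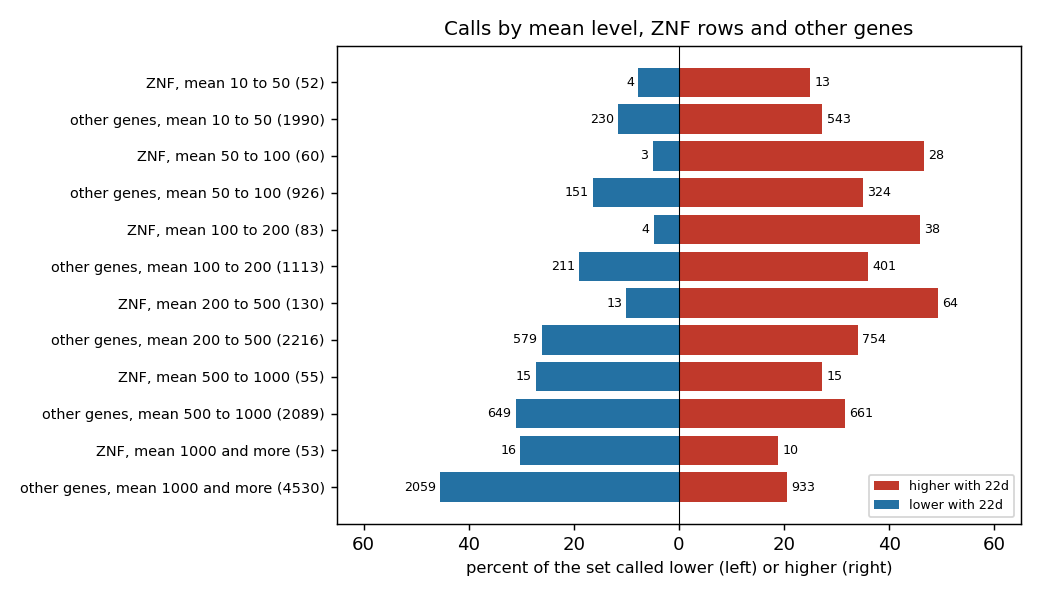
Percent of ZNF rows and of other genes called lower (blue, left) or higher (red, right) with 22d in bands of mean level in normalized counts, with the number called beside each bar and the size of the set in parentheses. ZNF rows exceed other genes in rises at 50 to 500 normalized counts and not at 10 to 50 or at 500 and more.

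Chromosome 19 carries 145 of the 321 members, of which 60 rose and 17 fell, with a median log2 fold change of 0.31. On the other chromosomes 67 of 176 rose and 31 fell, with a median of 0.16. Within KRAB members, 51 of 116 on chromosome 19 rose and 9 fell, and 32 of 69 elsewhere rose and 6 fell, with medians of 0.36 and 0.32. Without the KRAB motif, 9 of 29 on chromosome 19 rose and 8 fell. Elsewhere 32 of 104 rose and 25 fell, and the medians were 0.03 and 0.01. The median level was 251 normalized counts for members on chromosome 19 and 442 for the others. Runs of at least 5 ZNF rows of any level whose starts lie within 1000000 bases of the next formed 9 clusters on chromosome 19, which hold 137 members. In order along the chromosome they hold 3, 11, 9, 19, 2, 13, 13, 20 and 47 members.

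In the 8 clusters other than the last, 48 of 90 members rose and 5 fell, with a median of 0.46. In the cluster at chr19:51571298-53580269, from ZNF175 to ZNF331, 12 of 20 members rose and 0 fell. There, ZNF766 had 529, 534 and 458 normalized counts in the 22d libraries, against 282, 252 and 398 in the DMSO libraries, and 22d lay above DMSO throughout (log2 fold change 0.73, SE 0.17, limma adjusted p = 0.0023), while its neighbour ZNF480 averaged 434 ± 44.0 with 22d against 418 ± 50.5 normalized counts with DMSO (SD over 3 libraries; log2 fold change 0.06, SE 0.14, limma adjusted p = 0.75). The cluster at chr19:11483427-12640098, from ZNF653 to ZNF791, had 9 members, of which 6 rose and 0 fell, ZNF627 by 0.65 and ZNF700 by 0.51 (limma adjusted p = 0.0036 and 0.016); ZNF700 did not pass without DMSO replicate 2 (adjusted p = 0.075) or 22d replicate 2 (0.068). From ZNF565 to ZNF573, at chr19:36182060-37817300, 8 of 13 rose and ZNF850 alone fell. ZNF585B there averaged 505 ± 70.3 with 22d against 269 ± 10.3 normalized counts with DMSO (SD over 3 libraries), a rise of 0.90 (limma adjusted p = 0.00012); 26.6% of its 50-base words also stand in transcripts of other genes, so its reads may be split with them. ZNF146, known as OZF, averaged 1372 ± 223 with 22d against 1003 ± 179 normalized counts with DMSO (SD over 3 libraries), a rise of 0.45 with overlapping groups (limma adjusted p = 0.02), and did not pass without 22d replicate 2 (0.097) or DMSO replicate 2 (0.095).

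In the cluster at chr19:19668796-24129961, from ZNF101 to ZNF254 next to the centromere, 8 of 19 members rose and 2 fell. ZNF91, which represses SVA retrotransposons, had 233, 277 and 304 normalized counts in the 22d libraries, against 183, 132 and 199 in the DMSO libraries, with all 22d libraries above all DMSO libraries (log2 fold change 0.67, SE 0.18, limma adjusted p = 0.0063). ZNF93, which has repressed LINE-1 elements in primates, had 212, 221 and 152 normalized counts in the 22d libraries, against 164, 96.2 and 188 in the DMSO libraries, and its groups overlap (log2 fold change 0.42, SE 0.24, limma adjusted p = 0.15; adjusted p = 0.045 with scaling by library totals). The most abundant pair of the cluster went the other way: ZNF714 fell by 0.46 and ZNF101 by 0.42 (limma adjusted p = 0.0069 and 0.0067), though neither passed with scaling by library totals (-0.24 and -0.20, adjusted p = 0.16 and 0.17). In the short cluster at chr19:34677639-34964049, ZNF302 had 378, 414 and 355 normalized counts in the 22d libraries, against 165, 146 and 177 in the DMSO libraries and rose by 1.23 (SE 0.14, limma adjusted p = 1.3e-05), whereas ZNF792 averaged 135 ± 7.07 with 22d against 130.4 ± 10.0 normalized counts with DMSO (SD over 3 libraries; log2 fold change 0.05, SE 0.16, limma adjusted p = 0.8). At chr19:2819874-2944971, 2 of 3 members rose, and ZNF77, the third, had a log2 fold change of 0.11 (limma adjusted p = 0.54). At chr19:7069444-9793180, 5 of 11 rose and 1 fell; ZNF266 rose by 0.31 (limma adjusted p = 0.028; 0.064, 0.12 and 0.11 without DMSO replicate 2, DMSO replicate 1 and 22d replicate 2) and ZNF317 averaged 1825 ± 56.0 with 22d against 1984 ± 49.2 normalized counts with DMSO (SD over 3 libraries; log2 fold change -0.12, SE 0.10, limma adjusted p = 0.31). Of the 13 members at chr19:43525497-45076588, 6 rose and 1 fell, and ZNF296 rose by 0.47 (limma adjusted p = 0.03) with 1573 normalized counts in 22d replicate 1, against 964 and 1043 in replicates 2 and 3, and did not pass without that library (0.26, adjusted p = 0.11) or without DMSO replicate 1 or 3 (0.072 and 0.11). ZNF428 there had a log2 fold change of -0.20 (limma adjusted p = 0.15).

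The last cluster, at chr19:55476332-58481230 from ZNF628 to ZNF446 at the end of the long arm, was split. Of its 47 members 10 rose and 9 fell, with a median of 0.07, and of its 35 KRAB members 7 rose and 7 fell. Its falls include ZNF544, with 54.7, 102 and 89.8 normalized counts in the 22d libraries, against 166, 164 and 165 in the DMSO libraries, and ZNF584, with 236, 263 and 302 normalized counts in the 22d libraries, against 514, 485 and 549.6 in the DMSO libraries. In both genes every 22d library lay below every DMSO library (log2 fold change -1.04, SE 0.22, limma adjusted p = 0.0014; log2 fold change -0.96, SE 0.14, limma adjusted p = 6.7e-05). ZNF530 averaged 119 ± 15.7 with 22d against 237 ± 31.1 normalized counts with DMSO (SD over 3 libraries; log2 fold change -0.99, SE 0.17, limma adjusted p = 0.00028). ZNF606 in the same cluster went up, at 142, 149.7 and 109 normalized counts in the 22d libraries, against 69.4, 69.3 and 75.7 in the DMSO libraries (log2 fold change 0.88, SE 0.19, limma adjusted p = 0.0015). ZNF274, which recruits SETDB1 to the last exons of other ZNF genes, lies in this cluster and stood at 1118 ± 38.0 with 22d against 1079.8 ± 50.2 normalized counts with DMSO (SD over 3 libraries; log2 fold change 0.05, SE 0.10, limma adjusted p = 0.69). ZNF865 averaged 3480.0 ± 282 with 22d against 3062 ± 356 normalized counts with DMSO (SD over 3 libraries) and was not called (limma adjusted p = 0.17), but was with scaling by library totals and quantile normalization (0.41 and 0.49, adjusted p = 0.0033 and 0.0012). The 9 other genes with a mean of at least 100 inside the last cluster had 1 rise and 7 falls, with a median of -0.54. Such neighbours numbered 29 in the second cluster, with 10 rises and 10 falls, 12 in the seventh, with 1 rise and 4 falls, and 0 to 4 in each of the others. Among the 128 pairs of neighbouring members within clusters, both rose in 21, both fell in 1 and 1 rose while the other fell in 10. Rises outnumber falls among the clustered members as a whole, with 48 and 5 of 90 in the other 8 clusters and 10 and 9 of 47 in the last. Whether neighbours change together was not tested. Across the settings run, the last cluster had 9 to 21 rises and 8 to 10 falls, and the other 8 clusters 35 to 65 rises and 2 to 5 falls; the difference between clusters was not tested.

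**Figure D5:**
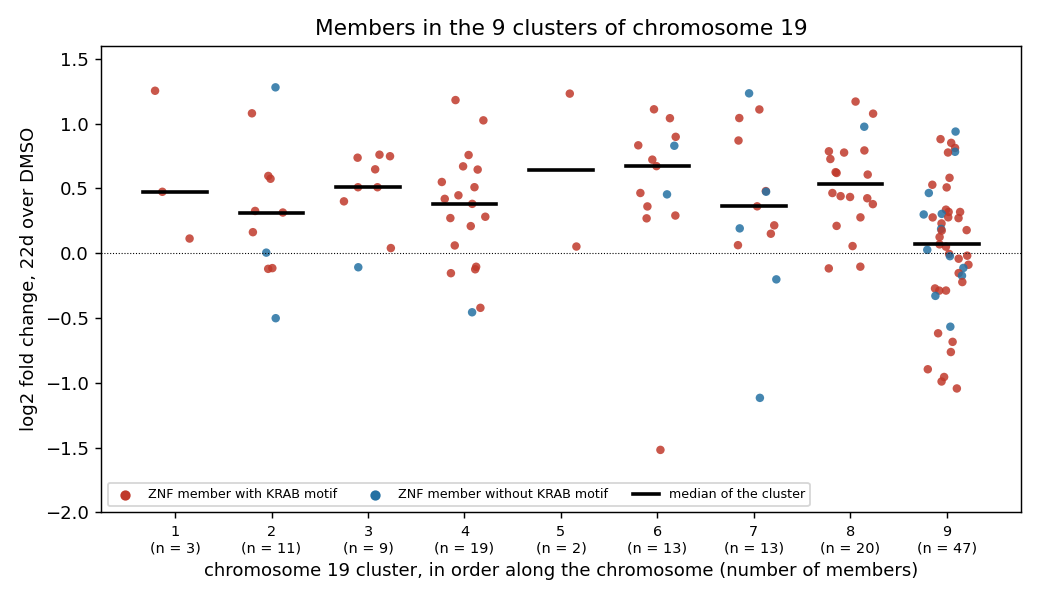
Log2 fold change (22d over DMSO) of each of the 137 members in the 9 clusters of chromosome 19, in order along the chromosome, red with and blue without a KRAB motif; the black bar is the cluster's median and points are spread sideways only to be seen. The medians run from 0.31 to 0.67 in clusters 1 to 8 and stand at 0.07 in cluster 9.

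Of 30 members with roles known from other work 9 rose, 7 fell and 14 did not pass, or 30% and 23.3%, which is near the 28.5% and 29.6% of all genes. Among those that act on ribosomes, ZNF593 was described above with the largest falls. ZNF598, the ubiquitin ligase that senses collided ribosomes, had 2712, 2954 and 3464 normalized counts in the 22d libraries, against 5246, 6884 and 4966 in the DMSO libraries. All 22d libraries lay below all DMSO libraries, and DMSO replicate 2 was the highest (log2 fold change -0.90, SE 0.14, limma adjusted p = 9.6e-05). ZNF622, the counterpart of the yeast ribosome maturation factor Rei1, averaged 983 ± 171 with 22d against 1152 ± 99.5 normalized counts with DMSO (SD over 3 libraries) and was not called (limma adjusted p = 0.14), but passed at -0.37 without 22d replicate 1 (adjusted p = 0.015), which held 1174 normalized counts against 845 and 929 in the other 22d libraries. ZNF207, known as BuGZ and needed for chromosome alignment in mitosis, fell by 0.59, with 2424, 2752 and 2384 normalized counts in the 22d libraries, against 3941, 3506 and 3918 in the DMSO libraries (limma adjusted p = 0.00035). ZNF706 fell by 0.52 (limma adjusted p = 0.0012). The RNA-binding gene ZNF346 and the nucleolar gene ZNF330 did not pass, with log2 fold changes of -0.17 and -0.10 (limma adjusted p = 0.24 and 0.46), whereas ZNF638, which binds DNA and RNA in the nucleus, rose by 0.56 (limma adjusted p = 0.015; 0.067 without DMSO replicate 2 and 0.054 without 22d replicate 2).

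Among members tied to p53, ZNF385A, whose mouse counterpart Hzf steers p53 toward cell cycle arrest genes, had 5048, 5335 and 6009.7 normalized counts in the 22d libraries, against 3223, 3669.6 and 3182 in the DMSO libraries, and all 22d libraries were higher (log2 fold change 0.70, SE 0.11, limma adjusted p = 0.00011). ZNF420, known as Apak and as an inhibitor of p53, had 119, 169 and 137 normalized counts in the 22d libraries, against 71.7, 64.1 and 104 in the DMSO libraries, also without overlap (log2 fold change 0.83, SE 0.22, limma adjusted p = 0.0056). Among chromatin factors, ZNF217, a breast cancer oncogene that works with the CoREST corepressor, rose by 0.55, with 5078 ± 186 with 22d against 3478 ± 180.1 normalized counts with DMSO (SD over 3 libraries) (limma adjusted p = 0.00035). ZNF148 rose by 0.63, the SUMO ligase gene ZNF451 by 0.52, ZNF318 by 0.47 and ZNF644, a partner of the G9a methyltransferase, by 0.44 (limma adjusted p = 0.0014, 0.0098, 0.0071 and 0.031). ZNF644 did not pass without DMSO replicate 2, 22d replicate 2 or 22d replicate 3 (adjusted p = 0.14, 0.14 and 0.054). ZNF592, ZNF687 and ZNF532, which form a complex with ZMYND8, did not pass, with log2 fold changes of 0.09, -0.21 and 0.14 (limma adjusted p = 0.49, 0.099 and 0.42). ZNF592 passed as higher with scaling by library totals and quantile normalization (0.31 and 0.35, adjusted p = 0.024 and 0.014). ZNF335, which acts with a histone H3 lysine 4 methyltransferase complex, fell by 0.45 (limma adjusted p = 0.0038; 0.079 with scaling by library totals).

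ZNF143, the activator whose motif stood in 9.68% of the members' promoters, had 229.7, 228 and 242 normalized counts in the 22d libraries, against 241, 253 and 274 in the DMSO libraries. Its groups overlap (log2 fold change -0.13, SE 0.14, limma adjusted p = 0.42). Its paralogue ZNF76 had a log2 fold change of -0.29 (limma adjusted p = 0.041), and ZNF384, a fusion partner in acute leukaemia, had one of -0.26 (limma adjusted p = 0.045). Both calls were lost with 10 of the 14 other settings each, ZNF76 for example without DMSO replicate 2 (adjusted p = 0.11) and ZNF384 with scaling by library totals (-0.04, adjusted p = 0.74). ZNF281, ZNF445, which guards imprinted genes, ZNF746, which represses the PGC-1 alpha gene, and ZNF830 did not pass, with log2 fold changes of -0.18, -0.16, 0.18 and -0.14 (limma adjusted p = 0.22, 0.2, 0.25 and 0.4). ZNF746 passed as higher without DMSO replicate 2 (adjusted p = 0.049) and under both other scalings (0.011 and 0.017).

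Related families outside the ZNF symbols were measured at the same level, a mean of at least 100. Of 7 finger genes with a KRAB motif and another symbol, 4 rose and 0 fell, with a median of 0.63. Of 16 ZSCAN and ZKSCAN genes 9 rose and 2 fell (median 0.50), of 10 ZFP genes 5 rose and 2 fell (median 0.34), and of 33 ZBTB genes, whose fingers are joined to a BTB domain, 13 rose and 7 fell (median 0.19). The median level of each set lay between 200 and 500 normalized counts, where 34.0% of other genes rose and 26.1% fell. The sets are not separate, since a KRAB gene with a ZFP or ZKSCAN symbol also counts under that symbol. Differences between these sets and other genes were not tested.

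Of 26 genes listed for the corepressor system of KRAB proteins 4 rose, 14 fell and 8 did not pass, with a median of -0.31, a split that became 8 rises and 8 falls with scaling by library totals. The list's shares of 15.4% higher and 53.8% lower stand beside 20.6% and 45.5% of other genes with a mean of at least 1000, and the list's median level was 2183 normalized counts. TRIM28, which KRAB domains bind, had 21429.9, 20408 and 21825 normalized counts in the 22d libraries, against 38228, 44579 and 34162 in the DMSO libraries, and every 22d library was lower (log2 fold change -0.87, SE 0.12, limma adjusted p = 3.7e-05). UHRF1 averaged 2215 ± 548 with 22d against 15465 ± 2007 normalized counts with DMSO (SD over 3 libraries). DNMT1 averaged 7835 ± 239 with 22d against 18766 ± 2082 normalized counts with DMSO (SD over 3 libraries). Both maintain DNA methylation and had log2 fold changes of -2.83 and -1.25 (limma adjusted p = 6.5e-08 and 1e-06). The histone methyltransferase gene SUV39H1 fell by 2.11, the NuRD subunit gene MTA2 by 1.02, and the HP1 genes CBX5 and CBX3 by 0.60 and 0.46 (limma adjusted p = 8.2e-08, 4.2e-06, 0.00029 and 0.0034). SETDB1 itself averaged 2219 ± 186 with 22d against 1992 ± 85.1 normalized counts with DMSO (SD over 3 libraries) and did not pass (log2 fold change 0.15, SE 0.10, limma adjusted p = 0.22). Among genes that rose were ATRX, which loads histone H3.3 on heterochromatin, by 1.09, and the HUSH complex genes MPHOSPH8 and FAM208A (TASOR) by 0.67 and 0.28 (limma adjusted p = 0.00025, 0.0003 and 0.037). Of the same list, DAXX fell by 0.64 (limma adjusted p = 0.00035), and PPHLN1 did not pass, at -0.20 (limma adjusted p = 0.14). With scaling by library totals the median of the list was -0.09, against 0.22 for all genes, and with quantile normalization 7 and 8 and -0.07, against 0.03. TRIM28, UHRF1, DNMT1, SUV39H1, SUV39H2, MTA2, DAXX and CBX5 fell under both. The other falls of the list passed under neither, namely CBX3 (limma adjusted p = 0.092 and 0.15), HDAC1, HDAC2, CHD4, RBBP4 and EHMT2. SETDB1 passed as higher under both (0.37 and 0.39, limma adjusted p = 0.0073 and 0.0055). So did CHD3 (0.27 and 0.36, limma adjusted p = 0.044 and 0.013) and MORC2.

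Exons of 170 members overlap another gene in GENCODE v29, and the library kit named in the labels does not mark strand, so reads in such overlaps cannot be assigned by strand. Among the 151 members without such overlap 49 rose and 26 fell, with a median of 0.19, and the KRAB split there was 33 rises and 7 falls of 83 against 14 and 19 of 66. In 22 members, in and outside the clusters, over 20% of the 50-base words of the longest transcript also stand in another gene's transcripts. These other genes can include ones that overlap the member. Without these 22 members, 118 of 299 rose and 45 fell.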

How the data were processed

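RNA of MV4-11 cells given 22d or DMSO was measured in 3 libraries each. FastQC, cutadapt, STAR, HTSeq and DESeq2 with build hg38 were used, per the submitters' processing notes, without versions. The annotation, filters and strand setting are not given in the sources used here. The authors deposited 1 table, whose columns are, per the file headers, a normalized signal for each library and the mean signal. The authors' log2 fold change, its standard error, a test score and p-values complete the deposited table and are not printed here. Dividing out 1 size factor per library gave whole read counts for 100% of the deposited values (tolerance 0.001 of a read).

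Genes with a mean of at least 10 entered limma-trend on log2(value + 1) with no block, where the added 1 understates changes of low genes. The recovered reads gave 7723 called genes by edgeR (quasi-likelihood, TMM), and the normalized signal 7718 by limma. R 4.3.3, limma 3.58.1, edgeR 4.0.16, DESeq2 1.42.0 and Python 3.11.15 with matplotlib 3.10.9 were used. With 200 of the 13297 genes changed in a simulated 22d against DMSO comparison, limma recovered 44.8% of 1.5-fold, 80.6% of 2-fold and 97.0% of 4-fold changes, and 8.64% of its 162 calls were false. The data themselves gave 7718 calls, and the cutoff of adjusted p depends on how many genes change. The simulated shares therefore do not measure recovery or false calls in this comparison.

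All 321 members matched GENCODE v29 by symbol, as did 23775 of the 26364 rows of the table. Coding sequences of 318 were translated, since no protein table was used. A C2H2 motif is 2 cysteines 2 to 4 residues apart and 2 histidines 3 to 5 apart, with 12 residues between the pairs. The residue at position 4 of these 12 must be L, I, V, M, F, Y, W or C. A KRAB motif needs 7 of 11 conserved positions of the A box, a SCAN motif 10 of 12; variant domains are missed. Members, lists and the rule for named genes were chosen with earlier results of these data known, and the KRAB and SCAN limits after seeing the spread of scores over proteins, without expression values. Named members are the 8 largest rises and falls among called members with groups apart, the 4 smallest p-values in each direction, 30 of 32 members listed for known roles, the 2 most abundant members per cluster or class, and those nearest the level limit; genes at cluster ends and the 3 pseudogenes are named as such. Alternatives were other pseudocounts, filters, scalings, tests, level limits and sets of members, the replicate block, and leaving out each library; leaving out members with shared sequence words was added after seeing the data. Some marker genes are not reported here.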

Additional observations from a re-analysis of the deposited data

How the results depend on the processing

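Leaving out each library in turn gave 6682 to 7428 called genes among all tested, and the other settings 7419 to 8044, against 7718. With 1 library left out, 102 to 130 members rose, 37 to 46 fell and the members' median log2 fold change was 0.22 to 0.27. With scaling by library totals 24 members fell, and the median was 0.48 against 0.22 for all genes; with quantile normalization it was 0.19 against 0.03. Among the 238 members with a mean of at least 200 the median was 0.18. Without members whose exons overlap another gene, 49 of 151 rose, 26 fell and the median was 0.19. These settings change the scaling or count fewer members, and the cause of the shifts was not tested. Pseudocounts of 0.5 and 5, no filter, edgeR, DESeq2, members from a mean of 50, and leaving out pseudogene symbols or members with shared sequence words moved neither count by over 1.5 times. With the replicate number as a block 7419 genes were called, and 121 members rose and 42 fell; among named members ZNF76, ZNF384, ZNF266, ZNF516 and ZNF185 were not called there. Deviations of same-numbered libraries from their group means correlated at -0.03, -0.02 and -0.10 across genes, so the numbers were not taken as pairs. Of 70 named members 46 were called and 32 of these passed in every setting; none of the named members reversed with a call. Depth limits the members near the level limit most, where 1 read is worth 0.839 to 1.14 normalized counts.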
